A study of Homo sapiens with 6 samples.

Results

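The genes described here are 10 secreted or enzymatic mediators of inflammation: the chemokines CXCL8, CXCL1, CXCL2, CXCL3 and CXCL5, the cytokines IL1A, IL1B, IL6 and LIF, and the prostaglandin enzyme PTGS2. They were taken as the probe sets that the platform's table assigns to a single one of these symbols, which gave 18 of the 41091 probe sets tested (those with 1 symbol, control sets left out) and 10 of 19775 genes. CXCL2 and CXCL5 had 3 probe sets each. CXCL8, IL1A, IL1B and PTGS2 had a pair each, and CXCL1, CXCL3, IL6 and LIF a single one. The genes were picked with their differences on these same 6 arrays known, so their values are given as a description, with no p-value. Counts of those past the fit's threshold are set beside the share of all genes.

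Messenger RNA had been measured on 6 Affymetrix arrays, 3 per group. The 10A/143B group is a cybrid, a fusion cell, with mitochondria of MCF10A, a non-tumorigenic breast epithelial line. The 468/143B group is a cybrid with mitochondria of the metastatic breast cancer line MDA-MB-468. Both were made by fusing actinomycin-D-treated, enucleated donor cells with the mitochondrial-DNA-free p0 form of the osteosarcoma line 143B, which supplied the nucleus. Selection in bromodeoxyuridine without uridine removed unfused cells of either parent. The labels enter MCF10A and MDA-468 as cell line although the protocol describes cybrids, and they do not say how many clones or cultures the 3 RNA extracts of a cybrid came from. The series' title asks whether non-cancerous mitochondria suppress oncogenic pathways in metastatic cells.

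CXCL1, CXCL2, CXCL3, CXCL5 and CXCL8 are chemokines with the amino acid motif ELR, which draw neutrophils through the receptors CXCR1 and CXCR2. IL1A and IL1B signal through IL1R1 to the transcription factors NF-kB and AP-1, which in turn act on the promoters of many of the same genes. IL6 and LIF signal through receptors that share the subunit IL6ST (gp130). PTGS2 (COX-2) is the inducible enzyme that commits arachidonic acid to prostaglandins. The mRNAs of these genes are short-lived, since AU-rich elements in them bind decay factors such as ZFP36 (tristetraprolin). Osteosarcoma and breast cancer lines are known to secrete several of these factors.

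The 5 chemokine genes lie in 1 cluster on chromosome 4. The stretches before their transcription starts are shown because they hold a shared NF-kB-type sequence and because the genes that share it differed in value. RefSeq sequences (GRCh38.p14) were at hand for 9 of the 10 genes. The letters GGANTTTCC, searched on both strands in the 250 bases before the start, were found in 6 of these 9, namely the 5 chemokines and IL6, against 1.45% of all 35116 promoters. The AP-1 letters TGANTCA were found in CXCL8 and IL1A, against 6.57% of promoters. The 140 bases before the start are printed 5′ to 3′ on the gene's own strand, with both kinds of match in capitals. They lie at chr4:73740429-73740568 (plus strand), chr4:73869253-73869392 (plus strand), chr4:74099196-74099335 (minus strand), chr4:74038690-74038829 (minus strand), chr4:73998678-73998817 (minus strand) and chr7:22727060-22727199 (plus strand).
CXCL8: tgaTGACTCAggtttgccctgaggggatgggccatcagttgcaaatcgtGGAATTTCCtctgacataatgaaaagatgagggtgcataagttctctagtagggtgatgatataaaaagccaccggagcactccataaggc
CXCL1: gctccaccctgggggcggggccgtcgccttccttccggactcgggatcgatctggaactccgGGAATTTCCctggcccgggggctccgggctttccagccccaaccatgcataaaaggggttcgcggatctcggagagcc
CXCL2: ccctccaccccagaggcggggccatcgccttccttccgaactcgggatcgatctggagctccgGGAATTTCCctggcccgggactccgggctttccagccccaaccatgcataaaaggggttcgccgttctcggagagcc
CXCL3: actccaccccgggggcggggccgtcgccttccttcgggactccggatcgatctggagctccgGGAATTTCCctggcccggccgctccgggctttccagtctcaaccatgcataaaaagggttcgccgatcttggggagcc
CXCL5: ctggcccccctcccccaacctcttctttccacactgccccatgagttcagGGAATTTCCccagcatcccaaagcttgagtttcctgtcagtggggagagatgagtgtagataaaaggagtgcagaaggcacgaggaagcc
IL6: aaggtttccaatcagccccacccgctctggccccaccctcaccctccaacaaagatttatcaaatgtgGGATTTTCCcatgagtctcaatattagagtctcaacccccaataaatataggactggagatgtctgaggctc
The match of all 5 chemokines was GGAATTTCC and that of IL6 GGATTTTCC. Its first base lay 91 bases before the start in CXCL8, 78 in CXCL1 and CXCL3, 77 in CXCL2, 90 in CXCL5 and 72 in IL6. The stretches of CXCL1, CXCL2 and CXCL3 are close copies, with 12 edits over 140 bases between CXCL1 and CXCL2, 13 between CXCL1 and CXCL3 and 17 between CXCL2 and CXCL3. CXCL8 differed from CXCL1 by 81 edits and CXCL5 from CXCL1 by 72. A match is only a description of the letters. The matches in the close copies are not independent, and many of these genes were known to be acted on by NF-kB. Nothing is therefore read from the share. Other forms of NF-kB site, and sites farther from the start, were not searched, so genes without a match may hold them. CXCL5 and IL6, which hold the match, did not share the higher values of CXCL8, CXCL1, CXCL2 and CXCL3 given below.

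Array intensities below are linear values as deposited, in the order of replicates 1, 2 and 3. A log2 difference is 10A/143B minus 468/143B on the scale log2(intensity + 16), given with its fitted standard error (SE), and it understates the change of dim probe sets. CXCL8, a potent attractant of neutrophils, had intensities of 652.6, 548.7 and 541.2 in 10A/143B, against 56.1, 64.4 and 49.9 in 468/143B on probe set 202859_x_at. The lowest 10A/143B array was far above the highest 468/143B array. On the log2 scale the levels were 9.22 ± 0.15 and 6.18 ± 0.14 (SD, n = 3 each), a difference of 3.04 ± 0.12. The other probe set, 211506_s_at, had 191.3, 78.8 and 76.6 in 10A/143B, against 15.1, 10.8 and 13.5 in 468/143B, again without overlap (difference 2.07 ± 0.31). Its replicate 1 array of 10A/143B was well above the other two. As in any measurement of bulk RNA, fewer cells that express a gene and less RNA per cell cannot be told apart.

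The CXCR2 ligands CXCL1, CXCL2 and CXCL3 were higher in 10A/143B as well. CXCL1 had 63.6, 122.8 and 115.4 in 10A/143B, against 17.4, 7.21 and 6.02 in 468/143B (2.14 ± 0.28). Here the 10A/143B replicate 1 array was the low one, opposite to CXCL8, so the difference was 1.25 between the replicate 1 arrays and 2.58 over replicates 2 and 3. CXCL2 had 88.0, 93.7 and 91.1 in 10A/143B, against 1.77, 4.63 and 8.17 in 468/143B on 209774_x_at (2.37 ± 0.19). The 10A/143B arrays were nearly equal, whereas those of 468/143B lay near the arrays' lowest value of 1. CXCL3 had 27.5, 46.5 and 44.6 in 10A/143B, against 2.95, 8.82 and 18.1 in 468/143B (1.12 ± 0.26), a smaller difference that still left the groups apart.

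The probe sets of a gene did not always agree. The suffix _x_at marks a set with probes that also match other sequences, and _s_at one whose probes match several transcripts. Both CXCL8 sets and the one high CXCL2 set carry such a suffix, and no set without it was left for CXCL8. The 2 CXCL2 sets without it stayed dim, 230101_at with 2.95, 1.75 and 2.60 in 10A/143B, against 13.7, 3.86 and 5.62 in 468/143B (difference -0.34 ± 0.16), and 1569203_at at 2.73 or less on every array. The CXCL2 difference thus rests on 1 set, and cross-hybridisation with CXCL1 or CXCL3 was not tested. CXCL1 and CXCL3 were each measured by a set without suffix.

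CXCL5, the remaining chemokine of the 5, showed no such difference. Its 3 sets lay between 1.00 and 12.5 on all 6 arrays, with overlapping groups and differences of 0.03 ± 0.20 (207852_at), -0.26 ± 0.14 (215101_s_at) and 0.09 ± 0.19 (214974_x_at). Without detection calls these values cannot be called background, but all 3 sets had group means below the median of all named probe sets (5.53 on the log2 scale).

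**Figure D1:**
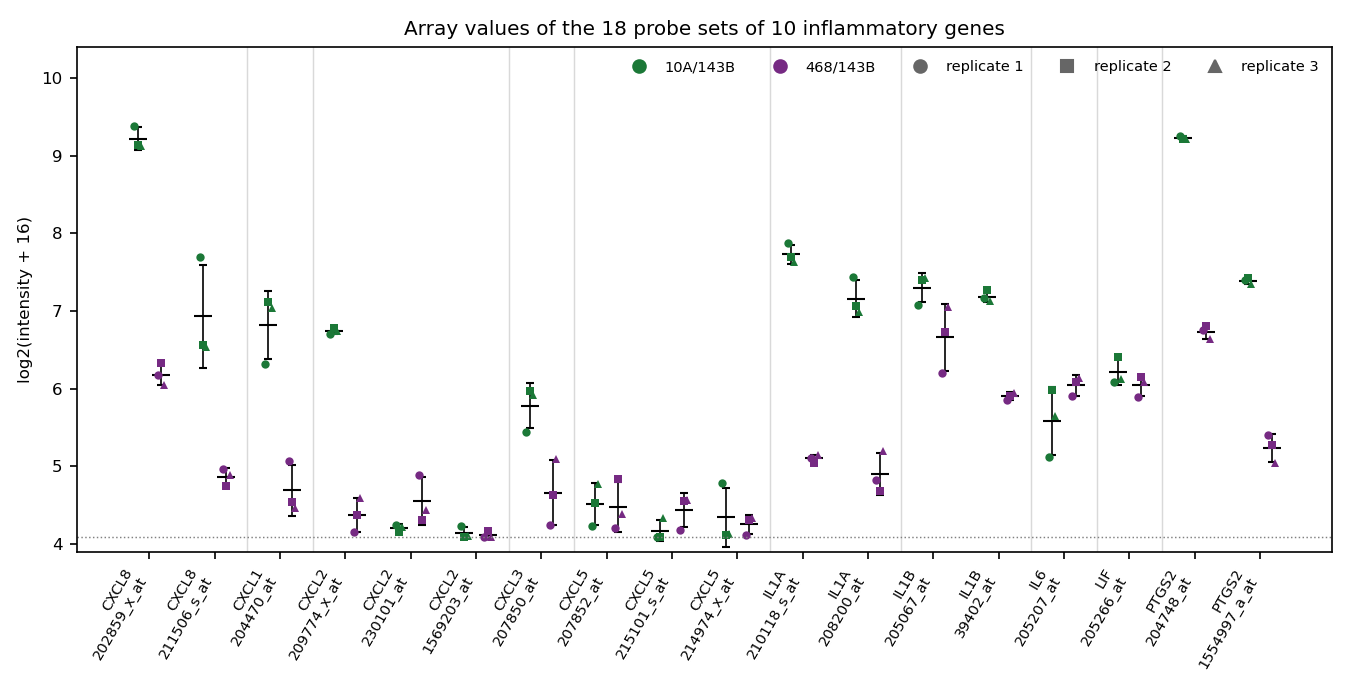
Log2(intensity + 16) of each of the 18 probe sets, with every array as a point (10A/143B green and left, 468/143B purple and right, marker shape by replicate), bars for mean ± SD of 3 arrays and a dotted line at the lowest deposited value. The groups stand apart with 10A/143B on top for 11 probe sets, among them both sets of CXCL8 (9.22 against 6.18 on the first), IL1A, IL1B and PTGS2. They overlap for CXCL5, IL6, LIF and the CXCL2 set 1569203_at, and 10A/143B lies below for the CXCL2 set 230101_at.

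IL1A, the IL-1 form that is active without cleavage and acts as an alarm signal of injured cells, also differed between the cybrids. Set 210118_s_at had 218.3, 191.3 and 182.3 in 10A/143B, against 18.3, 17.0 and 19.4 in 468/143B (2.64 ± 0.15). Set 208200_at, without a cross-hybridisation suffix, had 157.6, 117.8 and 110.7 in 10A/143B, against 12.2, 9.58 and 20.5 in 468/143B (2.27 ± 0.21). Both sets separated the groups, with all 3 arrays of 468/143B at low values. On the log2 scale these were close together on 210118_s_at (SD 0.05) and wider apart on 208200_at (SD 0.27). IL1B, whose precursor must be cleaved by caspase-1, differed less. Set 39402_at had 127.1, 138.1 and 123.6 in 10A/143B, against 41.6, 44.0 and 45.6 in 468/143B (1.28 ± 0.13). Set 205067_at had 119.4, 153.3 and 155.4 in 10A/143B, against 57.3, 89.9 and 117.0 in 468/143B (0.64 ± 0.22). On this set the lowest 10A/143B array lay only just above the highest 468/143B array, and the log2 levels of 468/143B spread with an SD of 0.43, against 0.05 on the other set. The size of the IL1B difference therefore depends on the probe set.

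PTGS2 was higher in 10A/143B on both sets with little spread. Set 204748_at had 592.2, 580.0 and 576.0 in 10A/143B, against 91.8, 96.3 and 83.3 in 468/143B (2.49 ± 0.09, or 5.63-fold on this scale). Set 1554997_a_at had 153.3, 156.5 and 147.0 in 10A/143B, against 26.2, 22.6 and 16.9 in 468/143B (2.16 ± 0.16). The replicate 1 arrays and replicates 2 and 3 gave nearly the same difference on the first set, 2.5 and 2.49.

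IL6 and LIF did not share in this. IL6, the cytokine of the acute phase response, had 18.6, 47.2 and 34.1 in 10A/143B, against 43.7, 52.0 and 54.6 in 468/143B. The groups overlapped, with the 10A/143B replicate 1 array lowest of all (-0.46 ± 0.24). LIF, which keeps stem cells undifferentiated in mice and acts on bone cells, had 52.0, 68.6 and 53.8 in 10A/143B, against 43.1, 54.9 and 51.6 in 468/143B, also with overlap (0.17 ± 0.17).

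Over the 10 genes, each read from its brightest set, the median log2 difference was 1.63, against -0.02 over all genes. A difference of at least 4-fold in favour of 10A/143B was seen for 5 of the 10 (CXCL8, CXCL1, CXCL2, IL1A and PTGS2) and for 123 of all 19775 genes (0.622%). In the fit over all genes with limma, 6 of the 10 passed an adjusted p of 0.05 as higher (those 5 and CXCL3) and 0 as lower, where 19.9% of all genes passed as higher, 15.7% as lower and 35.6% in either direction. With replicates 2 and 3 averaged the same 6 passed, where 13.8% of all genes passed as higher, 8.9% as lower and 22.7% in either direction. At least 2-fold higher were 6 of the 10 and 7.22% of all genes. Arrays did not overlap, with 10A/143B on top, for 7 of the 10 genes, against 24.2% of all genes (21.6% with 10A/143B below, 45.8% either way). Over probe sets this held for 11 of 18, with 1 below, against 24.3% and 18.5% of all named sets. Since the genes were chosen on this contrast, nothing is read from these counts. The split of all calls depended on scaling, with 55.8% of them higher in 10A/143B as deposited, 45.7% after quantile normalization and 46.0% after median centring, which moved the median of all genes to -0.12. IL6 alone among the 10 was added under quantile normalization, as lower. IL1B was added as higher with the replicate number as a block, over the mean of its sets and with a filter on level. It was also added without replicate 1 of 10A/143B and without replicate 3 of 468/143B. The filter kept genes whose higher group mean reached the median of all named probe sets (5.53). CXCL1, CXCL2, CXCL3 and IL1A reached it in 10A/143B only, and 3956 of 12089 genes passed as higher under it.

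**Figure D2:**
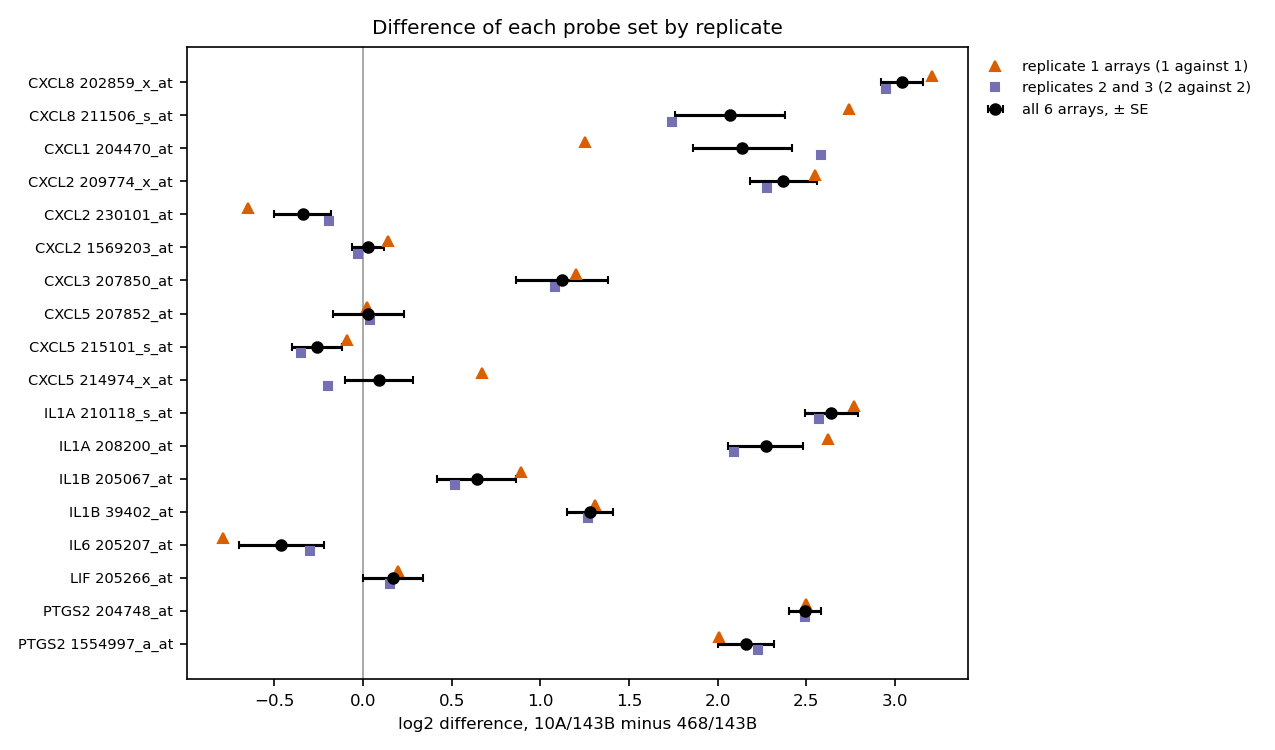
Log2 difference of each probe set (10A/143B minus 468/143B) from all 6 arrays with SE bars (black), from the replicate 1 arrays alone (triangles) and from replicates 2 and 3 (squares). CXCL1 moves most, with 1.25 and 2.58, whereas PTGS2 204748_at lies at 2.5 and 2.49.

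Every 10A/143B array had a higher median intensity than any 468/143B array, at 21.7 to 24.4 against 20.4 to 21.4. Replicates 2 and 3 were near duplicates in both groups, with an SD of their log2 differences of 0.08 in 10A/143B and 0.09 in 468/143B among 9220 bright probe sets, against 0.27 to 0.29 between replicate 1 and either. No source says that the extracts of a group came from separate cultures, so p-values reflect array-to-array spread that may be technical, and a fit with replicates 2 and 3 averaged is given beside calls that it ends. For ACTB, the 3′ over 5′ signal ratio (a sign of RNA integrity) was 1.92, 1.74 and 1.59 in 10A/143B and 1.18, 1.65 and 1.67 in 468/143B. For GAPDH the ratio was 1.007, 0.973 and 0.933 in 10A/143B and 0.966, 1.064 and 1.072 in 468/143B. The part of RNA integrity in the differences was not tested. Of 11 leukocyte markers, 0 were higher in 10A/143B and 1, ITGB2, was lower, with sums of 132.4 to 148.9 in 10A/143B and 172.2 to 202.0 in 468/143B. On all arrays 6 of the 11 lay below 16, CD14 among them. PTPRC (CD45) reached at most 22.6, in 468/143B, just above that group's array medians. The highest values were those of CSF1R, with up to 58.1 in 10A/143B and 42.5 in 468/143B, and of ITGB2, with 43.4 to 53.1 in 468/143B alone. Within the epithelial and osteoblast lists levels were mixed in both groups. KRT18, KRT8 and DSP were at 164.3 or above on all arrays and KRT5 at 2.07 or below, while RUNX2 was at 487.8 or above and SP7 at 16.9 or below. Of 8 epithelial markers 1 was higher and 3 lower, of 7 osteoblast markers 1 and 2, and of 8 fibroblast, smooth muscle and endothelial markers 2 and 2. Their summed levels in 10A/143B and 468/143B were 5379 to 5935 and 6636 to 7219 for epithelium, 1080 to 1128 and 1196 to 1289 for osteoblasts, and 9716 to 10246 and 8920 to 10271 for the last list. The part of these markers in the differences was not tested.

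On chromosome 4 the higher values of 10A/143B were not shared by the whole chemokine cluster. CXCL6, PF4V1, PF4 and PPBP, the other chemokines between CXCL8 and CXCL2, had differences of 0.07 ± 0.14, 0.13 ± 0.15, 0.14 ± 0.17 and 0.20 ± 0.13, and none passed. Their mean intensities in 10A/143B and 468/143B were 5.15 and 4.02, 4.54 and 2.64, 24.3 and 20.4, and 5.29 and 2.43. Apart from PF4 they thus lay near the arrays' lowest value of 1, where a difference could hardly show on this scale. CXCL6 lies next to CXCL8 and CXCL5 next to CXCL3 among the measured genes. Of the 20 measured genes that flank the cluster, 10 on either side, 6 passed as higher and 0 as lower (median 0.14), or 4 and 0 averaged. These were SLC4A4, a bicarbonate transporter (1.11 ± 0.18, adjusted p = 0.00146, but 0.111 over the mean of its sets), ADAMTS3, a procollagen protease (1.56 ± 0.18, adjusted p = 1.93e-04), ANKRD17 (1.04 ± 0.25, adjusted p = 0.0111), PARM1 (1.20 ± 0.23, adjusted p = 0.00307), RCHY1 (0.50 ± 0.13, adjusted p = 0.0173) and THAP6 (0.49 ± 0.13, adjusted p = 0.0165). RCHY1 did not pass in the averaged fit (adjusted p = 0.0621), without replicate 3 of 468/143B (0.0703), after quantile normalization (0.0553) or median centring (0.0642), or on a set without suffix (0.982). THAP6 did not pass in the averaged fit (adjusted p = 0.199), after quantile normalization (0.112), or without replicate 2 or 3 of 10A/143B or replicate 2 of 468/143B (0.0568 to 0.0855). The neighbours next to the cluster, RASSF6 on the CXCL8 side and MTHFD2L on the CXCL2 side, did not pass (0.03 ± 0.21 and -0.33 ± 0.21). MTHFD2L passed as lower after quantile normalization (-0.54, adjusted p = 0.0428), while the mean of its sets gave 0.22 and did not pass. The median over the 792 genes of chromosome 4 was 0.16, and 24 of them (3.03%) were at least 4-fold higher, CXCL8 with the largest difference. With the chromosome's median subtracted, CXCL8 kept 2.87, CXCL2 2.21, CXCL1 1.97 and CXCL3 0.96. The medians of the chromosomes of IL1A and IL1B (0.02), IL6 (0.04), PTGS2 (-0.04) and LIF (-0.08) were close to that of all genes.

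**Figure D3:**
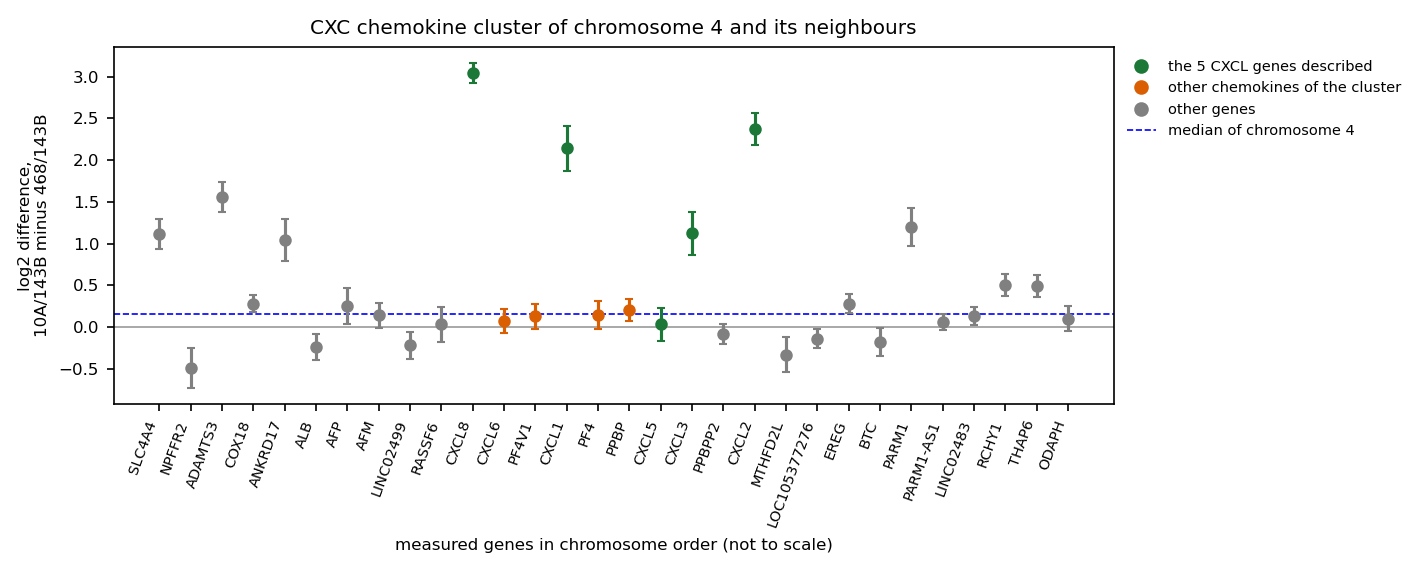
Log2 difference (10A/143B minus 468/143B, bars ± SE) of the measured genes of the CXC cluster and its neighbours in chromosome order. CXCL8 (3.04), CXCL2 (2.37), CXCL1 (2.14) and CXCL3 (1.12) stand above CXCL5 (0.03) and the other chemokines of the cluster (0.07 to 0.20). The dashed line is the chromosome's median of 0.16. CXCL5, CXCL6, PF4V1 and PPBP were dim in both groups.

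Of 180 measured genes on lists around these mediators, 43 (23.9%) passed as higher and 30 (16.7%) as lower in 10A/143B, close to the 19.9% and 15.7% of all genes, and their median difference was 0.01. With replicates 2 and 3 averaged, 28 and 17 passed. The receptors came first. CXCR1 and CXCR2, the receptors of the ELR chemokines, had mean intensities of 1.22 and 8.53 in 10A/143B, against 3.21 and 5.37 in 468/143B, and neither passed (adjusted p = 0.503 and 0.840). None of the 7 genes on the list of CXC receptors and other ELR chemokines passed in either direction.

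The IL-1 receptor itself was higher. IL1R1, which binds IL1A and IL1B, had 54.6, 49.5 and 46.9 in 10A/143B, against 18.6, 11.6 and 6.77 in 468/143B (1.25 ± 0.21, adjusted p = 0.00150), although its other probe set gave -0.39 and did not pass, and the mean of both sets did not pass either (0.43, adjusted p = 0.0779). IL1R2, the decoy receptor that binds IL-1 without signalling, was lower, with 10.3, 11.7 and 10.3 in 10A/143B, against 17.4, 34.8 and 24.3 in 468/143B (-0.61 ± 0.20, adjusted p = 0.0395). That call was lost in the averaged fit (adjusted p = 0.206) and on leaving out any array other than 468/143B replicate 1 (adjusted p = 0.0637 to 0.122). The other set of IL1R2 gave 0.04, and the mean of both sets did not pass (-0.29, adjusted p = 0.153). The co-receptor IL1RAP did not pass on its brighter set (0.33 ± 0.17, adjusted p = 0.173), and its other set passed as lower (-0.82). IL1RN, the secreted antagonist of IL-1, had means of 9.96 in 10A/143B and 24.3 in 468/143B (-0.62 ± 0.28, adjusted p = 0.127). It passed without replicate 1 of 10A/143B (adjusted p = 0.0426) or of 468/143B (adjusted p = 0.0332). The other 4 sets of IL1RN gave -0.43 to 0.13 and none passed, nor did the mean of its sets (-0.18, adjusted p = 0.25).

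Of 20 IL-1 family ligands, receptors and processing genes 3 passed as higher and 3 as lower (median -0.14). Besides IL1R1 the higher ones were IL18R1, a receptor chain of IL-18 (42.2, 56.5 and 50.2 in 10A/143B, against 4.53, 5.46 and 8.69 in 468/143B, adjusted p = 2.00e-04), and IL36RN, the antagonist of the IL-36 receptor (39.9, 33.6 and 19.7 in 10A/143B, against 1.46, 1.13 and 3.07 in 468/143B, adjusted p = 6.64e-04). PYCARD, the adaptor of the inflammasome that leads to IL1B cleavage, was 2.28-fold lower (-1.19 ± 0.16, adjusted p = 4.92e-04). Downstream of the receptor, 11 of 16 signalling genes were higher and 2 lower (5 and 2 averaged), with a median of 0.47. They included the TAK1-binding protein TAB3 (1.25 ± 0.19, adjusted p = 8.47e-04, and 0.200 over the mean of its sets), the ubiquitin ligase PELI2 (1.09 ± 0.09, adjusted p = 3.84e-05) and the IkB kinase CHUK (0.90 ± 0.09, adjusted p = 9.97e-05). The other IkB kinase, IKBKB, was 1.09 ± 0.22 higher on the brightest set (adjusted p = 0.00452, but 0.0647 averaged) and -0.74 on another that passed, so its direction is not settled.

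Among the receptor chains of IL6 and LIF, LIFR and the brightest set of IL6ST were higher, and IL6R did not pass. LIFR had 261.4, 288.0 and 268.7 in 10A/143B, against 60.1, 80.4 and 53.8 in 468/143B (1.85 ± 0.15, adjusted p = 2.56e-05), and a pair of its other 4 sets passed the same way (1.03 and 1.15). IL6ST, the signalling subunit shared by both cytokines, had 1024, 1128 and 1105 in 10A/143B, against 424.6, 505 and 508.5 in 468/143B (1.16 ± 0.08, adjusted p = 1.89e-05). Another of its 7 sets passed the same way (1.18), and their mean did not pass (0.24, adjusted p = 0.185). IL6R, the chain that binds IL6 alone, had overlapping arrays (0.49 ± 0.29, adjusted p = 0.240), but passed with the replicate number as a block (adjusted p = 0.0276). PTPN11 (SHP2), a phosphatase recruited by these receptors, was 2.77-fold higher (1.47 ± 0.07, adjusted p = 3.39e-06). CNTFR was lower (-1.18 ± 0.34, adjusted p = 0.0254), a call lost in the averaged fit (adjusted p = 0.0703) and without replicate 2 or 3 of 10A/143B or replicate 3 of 468/143B (adjusted p = 0.0510 to 0.0874). In all, 5 of 18 genes of this list were higher and 4 lower (4 and 0 averaged), with a median of -0.04.

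Few other genes of the prostaglandin pathway passed. Of 22 measured, 2 were higher and 2 lower (median 0.07). PLA2G4A, the phospholipase that releases arachidonic acid, had 545, 588.1 and 572.1 in 10A/143B, against 396.2, 367.1 and 377.4 in 468/143B (0.56 ± 0.07, adjusted p = 3.00e-04). PTGIS, which makes prostacyclin, was lower (-0.80 ± 0.19, adjusted p = 0.0102, but 0.0633 averaged and 0.0560 without 10A/143B replicate 3). SLCO2A1, which takes prostaglandins up for breakdown, was lower as well (-0.81 ± 0.26, adjusted p = 0.0387), though not with the replicate number as a block (adjusted p = 0.0527), nor without replicate 1 or 2 of either group (adjusted p = 0.0915 to 0.150). The exporter ABCC4 passed as higher on the brightest set (0.57 ± 0.07, adjusted p = 3.91e-04) and as lower on a pair of others (-0.54 and -0.72), so it has no settled direction. PTGS1, the constitutive cyclooxygenase (-0.30 ± 0.30, adjusted p = 0.517), PTGES, the inducible prostaglandin E synthase (-0.42 ± 0.18, adjusted p = 0.117, but 0.0385 without the intensity trend and 0.0323 after quantile normalization), and HPGD, which inactivates prostaglandins (-0.01 ± 0.16, adjusted p = 0.968), did not pass. The prostaglandin E receptors PTGER2 (0.47 ± 0.17, adjusted p = 0.0671) and PTGER4 (0.41 ± 0.21, adjusted p = 0.190) did not pass either, but PTGER2 passed without 10A/143B replicate 1, over the mean of sets, without the intensity trend and with an offset of 64 (adjusted p = 0.0200 to 0.0440).

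Other secreted inflammatory factors were mostly not called. Of 28 measured, 2 passed as higher and 5 as lower (0 and 2 averaged), with a median of -0.09. IL12A, a subunit of IL-12 and IL-35, was 2.87-fold lower, with 45.3, 64 and 54.6 in 10A/143B, against 221.3, 165.4 and 174.9 in 468/143B (adjusted p = 1.40e-04). IL24 (-0.98 ± 0.18, adjusted p = 0.00275) and TSLP (-0.87 ± 0.17, adjusted p = 0.00382, but 0.0533 averaged) were lower too. CSF3, the granulocyte growth factor, was higher, with 11.1, 26.2 and 28.1 in 10A/143B, against 3.18, 9.38 and 1.41 in 468/143B (0.86 ± 0.24, adjusted p = 0.0206). That call was lost in the averaged fit (adjusted p = 0.0790) and without replicate 2 or 3 of 10A/143B or replicate 1 or 3 of 468/143B (adjusted p = 0.0689 to 0.0866).

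The transcription factors that act on these promoters went both ways. NFKBIZ, a nuclear cofactor of NF-kB needed for part of the IL-1 response, was 4.89-fold higher, with 286, 317.4 and 310.8 in 10A/143B, against 48.8, 53.8 and 46.2 in 468/143B (2.29 ± 0.12, adjusted p = 4.61e-06), and 1.47 on its other set. The subunit REL was 3.21-fold higher (1.68 ± 0.23, adjusted p = 5.06e-04) and the subunit RELA 1.79-fold lower (-0.84 ± 0.11, adjusted p = 5.09e-04). The ubiquitin ligase BIRC2 was higher (1.29 ± 0.11, adjusted p = 4.20e-05). NFKBIA and TNFAIP3, inhibitors that NF-kB itself induces, had means of 582.5 and 114.9 in 10A/143B, against 598 and 104.6 in 468/143B, and did not pass (adjusted p = 0.897 and 0.592). In all, 3 of 18 NF-kB genes were higher and 6 lower (3 and 3 averaged, median -0.01). Among 14 AP-1 and C/EBP factors 3 were higher and 5 lower (2 and 4 averaged, median -0.24). ATF3, a stress-induced repressor or activator of this family, was 4.03-fold lower on the brightest set, with 184.8, 162.0 and 171.3 in 10A/143B, against 744.4, 770.7 and 714.1 in 468/143B (adjusted p = 2.52e-06). Its other sets gave -1.08, which passed, and -0.28, which did not. JUNB (-0.86 ± 0.11, adjusted p = 3.98e-04) and FOSL1 (-0.75 ± 0.09, adjusted p = 2.86e-04) were lower. FOS was higher (1.06 ± 0.27, adjusted p = 0.0150), but not in the averaged fit (adjusted p = 0.107) or without replicate 3 of 10A/143B (adjusted p = 0.0553) or of 468/143B (adjusted p = 0.0575).

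Factors that act on AU-rich mRNA were measured as well, 17 of them, of which 8 were higher and 3 lower (5 and 3 averaged, median 0.22). ZFP36, which marks mRNAs such as those of CXCL8, IL1A and PTGS2 for decay, was 2.49-fold lower, with 252.5, 233.9 and 259.6 in 10A/143B, against 643.6, 657.1 and 630.3 in 468/143B (-1.32 ± 0.07, adjusted p = 5.93e-06). XRN1, the exonuclease that degrades decapped mRNA, was 2.82-fold higher (1.5 ± 0.08, adjusted p = 6.15e-06). RC3H2 (Roquin-2), which binds stem-loops in inflammatory mRNAs, was higher (1.29 ± 0.14, adjusted p = 1.51e-04), with a pair of its other 6 sets passing the same way and 1 as lower (-0.53). DIS3L2 was lower on the brightest set (-1.76 ± 0.10) and higher on a pair of others (2.99 and 1.76), so its direction is not settled.

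**Figure D4:**
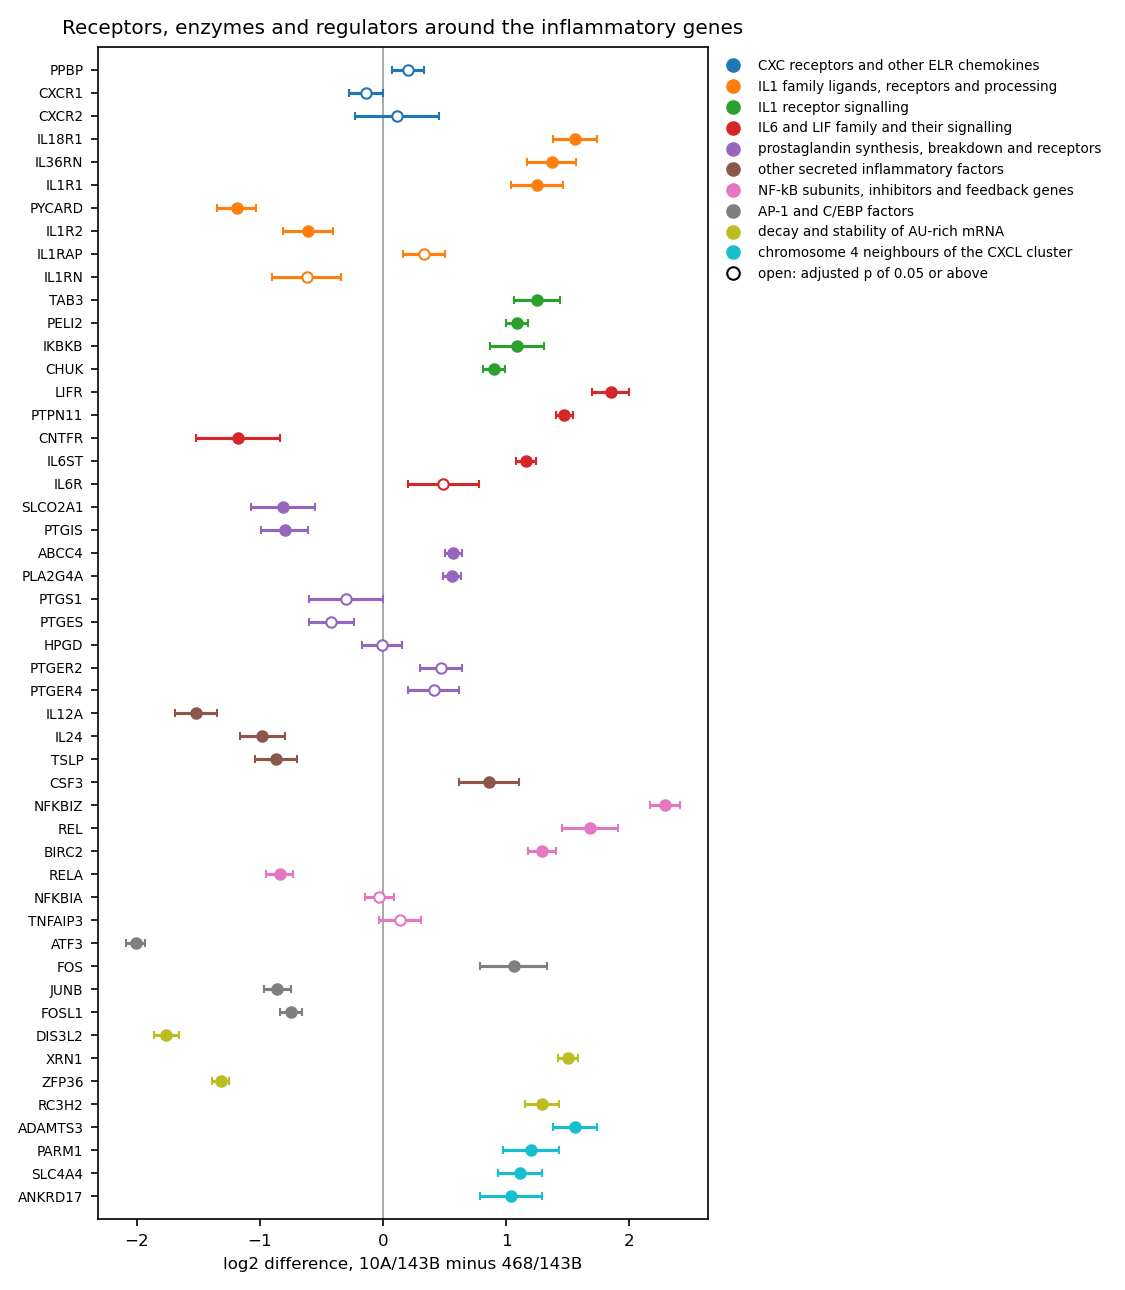
Log2 difference (10A/143B minus 468/143B, bars ± SE) of named receptors, enzymes, regulators and neighbours, 1 probe set per gene, coloured by list and open where the adjusted p was 0.05 or above. NFKBIZ (2.29) and LIFR (1.85) lie farthest to the right and ATF3 (-2.01) farthest to the left.

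The pattern of CXCL8 over the 6 arrays was most like that of AMMECR1 (Pearson r = 0.9998), LARP4, OTUD4 and CEP57 (0.9997 each) and FAM117B (0.9996), among 12088 genes whose higher group mean reached the median level. These values describe 6 arrays in a pair of groups, and 1249 genes had an r above 0.98, so the measure mostly records the gap between the groups.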

How the data were processed

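Messenger RNA of 3 10A/143B and 3 468/143B cybrid extracts was measured on Affymetrix arrays with 54675 probe sets. The deposited values are intensities on a linear scale from 1 to 13125. No source used here gives their summary algorithm, background correction or scaling, and no detection calls were used. Replicates were numbered by source name; the titles number them in another order, which pairs the same arrays.

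Values were used as deposited, as log2(intensity + 16). Symbols came from the platform table and were updated by Entrez identifier to RefSeq (GRCh38.p14, 41037 of 41091 probe sets matched). The probe set with the highest mean stood for its gene (19775 genes), and SEs of the 18 probe sets come from the same model over all 41091. The test was limma 3.58.1 (R 4.3.3), eBayes with intensity trend, with Benjamini-Hochberg adjustment over all genes at 0.05. The fit was also run on simulated data, whose outcome is not given here, so nothing is read from it. That run is no evidence that the p-values hold where arrays of a group are near duplicates, as they are here. The 10 genes and the lists were chosen with earlier results of these data known. Genes named from each list were up to 4 past the threshold without overlap of arrays, largest difference first, or the 2 with the smallest p, plus a fixed set of receptors, enzymes and regulators. RCHY1, THAP6, RASSF6, MTHFD2L and the other chemokines of the cluster were named after their values were seen. Of 191 listed genes, 11 were not analysed here.

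Deviations from group means correlated between same-numbered arrays of the groups (0.274, 0.225 and 0.210), so the replicate number was tried as a block. Replicates 2 and 3 correlated as well across numbers (0.260 and 0.198), and replicate 1 correlated negatively with both (-0.274 to -0.229). Deviations cancel out within a group, so the negative values are not separate information. The check sets replicate 1 apart and does not tell 2 from 3. The number of arrays limits the precision. Promoter sequences are RefSeq's, searched with Python 3.11.15.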

Additional observations from a re-analysis of the deposited data

How the results depend on the processing

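The 6 calls among the 10 genes were also made with replicates 2 and 3 averaged and under median centring. The count of higher calls stayed between 6 and 7 over the alternatives that test 1 set per gene, except without _x_at and _s_at sets. There 4 of 9 were called higher, beside 3374 of all 17098 genes, as CXCL8 has no set left and CXCL2 was not called. The added gene was IL1B in each case of 7. The genes were chosen on this contrast and the same arrays were refitted, so nothing is read from calls that stayed. Quantile normalization gave 1 lower call, IL6. With every named probe set tested, 10 of 18 sets were called higher, beside 7662 of all 41091. The averaged fit called 1759 genes as lower in place of 3113, and 28 higher and 17 lower on the lists in place of 43 and 30. Testing every probe set counts sets in place of genes, with 7662 higher and 5082 lower in all and 92 and 59 on the lists. With the replicate block, 4221 of all 19775 genes were higher and 3529 lower. Of the 10 genes 7 were higher (IL1B added), and 48 and 29 list genes were called. Besides IL6R and SLCO2A1 the block changed no call of the other genes named from the lists or of the cluster's neighbours named in the text. Averaging the sets of each gene reversed ABCC4 (-0.10) and DIS3L2 (0.78). An offset of 1 raised the difference of CXCL8 to 3.33 and of CXCL2 to 4.14, and an offset of 64 lowered them to 2.41 and 1.17. Over the 18 probe sets and their alternatives, 234 values stayed within 1 SD between replicates, 49 moved further and 0 called differences changed sign. The number of arrays, of which replicates 2 and 3 are near duplicates, limits what can be told apart, and dim sets such as those of CXCL5 could not be called present or absent.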

Other observations

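The 10 genes are short. Their RefSeq spans run from 1.9 kb (CXCL1) to 10.6 kb (IL1A), all within the 3 shortest of 10 equal classes of protein-coding genes. The median log2 differences of those classes were -0.12, -0.13 and -0.11, and the 10 genes within them ran from -0.46 (IL6), 0.03 (CXCL5) and 0.17 (LIF) to 3.04 (CXCL8). The replicate 1 array of 10A/143B differed from its fellows in either direction, for example as the highest of its group for both CXCL8 and both IL1A sets and the lowest for CXCL1, CXCL3 and IL6.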
